A study of Mus musculus with 2 samples.

Results

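Cluster 1 is a group of colonic CD4 T cells that the authors' annotation numbers 1 at a clustering resolution of 0.4 and that carries only a general CD4 label. All cells with both labels were taken, which gave 3940 of 18860 cells, 3170 from KO mice and 770 from WT mice. The mice were Rag-/- recipients in a T cell transfer model of colitis. WT recipients received naive, CD45RB-high and CD25-negative CD4 T cells of wild type, and KO recipients received CD4 T cells deficient in BCL-6, with 6 mice each. Strain, age, time after transfer and the number of T cell donors are not given in the sources used here. Rag-/- hosts make no T or B cells of their own, so all T cells in the colon descend from the transferred ones. TCRβ+CD4+ cells were sorted from each colon and every mouse got its own hashtag antibody before the cells were run together as 1 library, so the mouse is the replicate and p-values measure the spread between mice.

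BCL-6 is a transcriptional repressor best known as the factor that drives follicular helper T cells, where it opposes other helper fates. In transfer colitis, naive CD4 T cells expand in a lymphopenic host and reach the gut as effector cells, many of which make interferon gamma or interleukin 17. Interleukin 12 acts through a receptor that contains the Il12rb2 chain and activates Stat4, which promotes interferon gamma production by type 1 helper (Th1) cells.

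Cluster 1 held 714, 627, 489, 494, 574 and 272 cells of KO mice 1 to 6 and 171, 176, 92, 133, 99 and 99 cells of WT mice 1 to 6. These were 32.6% ± 8.71 of the cells of a KO mouse and 8.37% ± 2.25 of the cells of a WT mouse (SD, n = 6 mice each). KO mouse 6 had the lowest KO share, 16.5%, and WT mouse 2 the highest WT share, 11.6%, so the genotypes did not overlap. Genes that define the clusters differ between genotypes, so the share is a description. Summed UMIs (unique molecules counted) per mouse ran from 788842 to 1918716 in KO and from 271524 to 538131 in WT mice. Cluster 1 cells had a median of 2668 ± 124 UMIs in KO and 2863 ± 163 in WT mice (exact permutation p = 0.0368, and 0.0552 after adjustment for the 3 measures tested). The mitochondrial percent was 0.783 ± 0.0258 against 0.885 ± 0.0635 (exact permutation p = 0.00649, adjusted p = 0.0195), and the part of this difference in the gene results was not tested.

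The sort label held: all 6 T cell markers had UMIs, and their summed level was 3510 to 5046 CPM (UMIs scaled to a common library size) in every mouse. The CD8 markers Cd8a and Cd8b1 together reached at most 9.36 CPM in KO and 17.1 CPM in WT mice. Igkc, the 1 plasma cell marker in the table, had 0 UMIs in KO and 1 in WT mice. The 2 gamma-delta T cell markers in the table, Trdc and Trgv2, summed to 99.5 to 196.9 CPM in KO and 143.6 to 215.6 CPM in WT mice, and the B cell markers Cd79b and Ighm to at most 16.0 and 10.1 CPM. The 3 NK cell and ILC markers reached at most 30.8 and 41.5 CPM, the 5 epithelial markers 10.98 and 22.7 CPM, and Pecam1, the 1 stromal and endothelial marker, 63.4 and 105.8 CPM. The 8 macrophage and dendritic cell markers summed to 59.8 to 103.8 CPM in KO and 48.3 to 110.8 CPM in WT mice. The part of these markers in the gene results was not tested.

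Bcl6 itself was not lower in KO cells of cluster 1. It stood at 63.6, 71.4, 83.7, 81.0, 60.2 and 96.3 CPM in KO mice 1 to 6; WT mice 1 to 6 stood at 42.7, 37.6, 36.5, 45.3, 54.6 and 62.6 CPM. The highest WT mouse lay above the lowest KO mouse. The log2 fold change was 0.66 ± 0.16 (SE, edgeR quasi-likelihood test, Benjamini-Hochberg adjusted p = 0.0159). The call was lost in 6 alternatives (adjusted p = 0.0511 to 0.167 in edgeR's test). These were 92 cells per mouse, at least 100 cells per mouse, 1 cell per clone and every cell thinned to 1500 UMIs. The others were without WT mouse 1 and without WT mouse 2. The minimum of 100 cells left out WT mice 3, 5 and 6. The removed part of the gene is not given, so these counts of 5′ reads check nothing about the deletion, and KO and WT below are the deposited labels.

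The cluster came with 4 marker genes: Lmna, Itsn1, Rasgrp4 and Il2. Lmna encodes the A-type lamins of the nuclear envelope, and Itsn1 a scaffold protein of endocytosis that also activates Cdc42. Rasgrp4 encodes an activator of Ras known from mast cells, and Il2 the T cell growth factor interleukin 2. Il2 was not highest in cluster 1 in either genotype and Rasgrp4 not in WT mice, so the cells are called cluster 1 here and are given no cell type name.

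Lmna (chromosome 3, 88480147 to 88509956, minus strand, GRCm38) had its highest mean in cluster 1 in both genotypes, 387.4 CPM in KO and 110.1 CPM in WT mice. The next highest were regulatory cells, at 273.5 ± 129 CPM in KO and 100.5 ± 108 CPM in WT mice (SD). These means are over the 5 KO and 3 WT mice that had at least 20 such cells. In WT mice the lead of cluster 1 was 0.125 on the log2 scale (pseudocount 5 CPM), which is small beside that spread. In cluster 1 Lmna stood at 596.8, 731.7, 262.2, 130.1, 472.0 and 131.8 CPM in KO mice 1 to 6. It stood at 63.2, 59.3, 29.2, 118.3, 187.8 and 202.6 CPM in WT mice 1 to 6. KO mice 1, 2 and 5 were high, KO mice 4 and 6 lay inside the WT range, and the genotypes overlapped. The log2 fold change was 1.87 ± 0.40 (SE, edgeR quasi-likelihood test, adjusted p = 0.00537). It was 1.24 (adjusted p = 0.0299) without KO mice 1 and 2, a fit added after the data were seen. The call was lost with the DESeq2 test (adjusted p = 0.0504).

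Itsn1 (chromosome 16, 91729281 to 91920597, plus strand) was also highest in cluster 1 in both genotypes, with means of 40.7 CPM in KO and 7.43 CPM in WT mice. The next highest mean was 31.6 CPM in cytotoxic cells of KO mice and 4.34 CPM in cluster 3 of WT mice. In cluster 1 it stood at 39.6, 57.4, 44.8, 35.5, 42.8 and 24.1 CPM in KO mice 1 to 6; WT mice 1 to 6 stood at 7.43, 3.96, 7.29, 15.1, 3.41 and 7.37 CPM. Every KO mouse lay above every WT mouse. The log2 fold change was 2.41 ± 0.32 (SE) and is a description, because the gene passed the filter on low counts (at least 15.1 CPM in 6 mice) through the KO mice. Only 1 WT mouse reached that minimum.

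Rasgrp4 (chromosome 7, 29134851 to 29153961, plus strand) was highest in cluster 1 in KO mice only, with a mean of 41.2 CPM against 35.1 CPM in regulatory cells. In WT mice regulatory cells stood at 20.4 ± 21.0 CPM (SD, n = 3 mice) and cluster 1 at 6.28 CPM, with recirculating cells next at 5.63 CPM. In cluster 1 it stood at 58.4, 69.6, 34.4, 21.3, 39.4 and 24.1 CPM in KO mice 1 to 6; WT mice 1 to 6 stood at 9.29, 3.96, 7.29, 10.1, 3.41 and 3.68 CPM. The genotypes did not overlap, with a log2 fold change of 2.63 ± 0.43 (SE). This too is a description, because 6 KO mice and 0 WT mice reached the minimum of the filter, which fixed the direction. Of the mast cell and basophil markers only Kit and Hdc were in the table, and they summed to 9.24 to 26.7 CPM in KO and 7.29 to 45.5 CPM in WT mice.

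Il2 (chromosome 3, 37120523 to 37125959, minus strand) was not highest in cluster 1. Its mean there was 33.9 CPM in KO and 5.001 CPM in WT mice, against 88.4 and 44.0 CPM in cluster 3. In WT mice cluster 1 was the lowest of the 7 clusters, with cycling cells next at 7.47 CPM. The mean of 86.0 ± 124.3 CPM in Th17 cells of KO mice (SD, n = 6) rests on KO mouse 1, at 332.9 CPM; the other 5 ran from 3.36 to 87.4 CPM. In cluster 1 it stood at 35.4, 57.4, 34.4, 19.2, 39.4 and 17.8 CPM in KO mice 1 to 6; WT mice 1 to 6 stood at 3.72, 5.93, 3.65, 2.52, 6.83 and 7.37 CPM. The genotypes did not overlap, with a log2 fold change of 2.78 ± 0.43 (SE). Again 6 KO mice and 0 WT mice reached the minimum of the filter, so the gene had to differ and the fold change is a description. The WT values rest on 11 UMIs of Il2 over the 6 mice, 15 of Rasgrp4 and 17 of Itsn1.

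Cells with at least 1 Il2 UMI, after thinning to 1500 UMIs, made up 3.99% ± 1.91 of cluster 1 in KO and 0.913% ± 0.712 in WT mice (SD, n = 6 each). Thinning left out 103 KO and 22 WT cells, and without it the shares were 6.30% ± 2.19 and 1.46% ± 0.532. Regulatory T cells, which are known to make little or no Il2, gave 0 of 226 thinned KO cells and 0 of 112 thinned WT cells. Without thinning their share was 0% in KO and 1.28% in WT mice. The zeros allow shares of up to 1.33% and 2.68%, for counting error only. These limits pool the cells of all mice of a genotype, while the shares are means over mice. Median depths were 2643 UMIs in cluster 1 and 2453 in regulatory cells of KO mice, and 2890 and 2700 in those of WT mice.

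**Figure D1:**
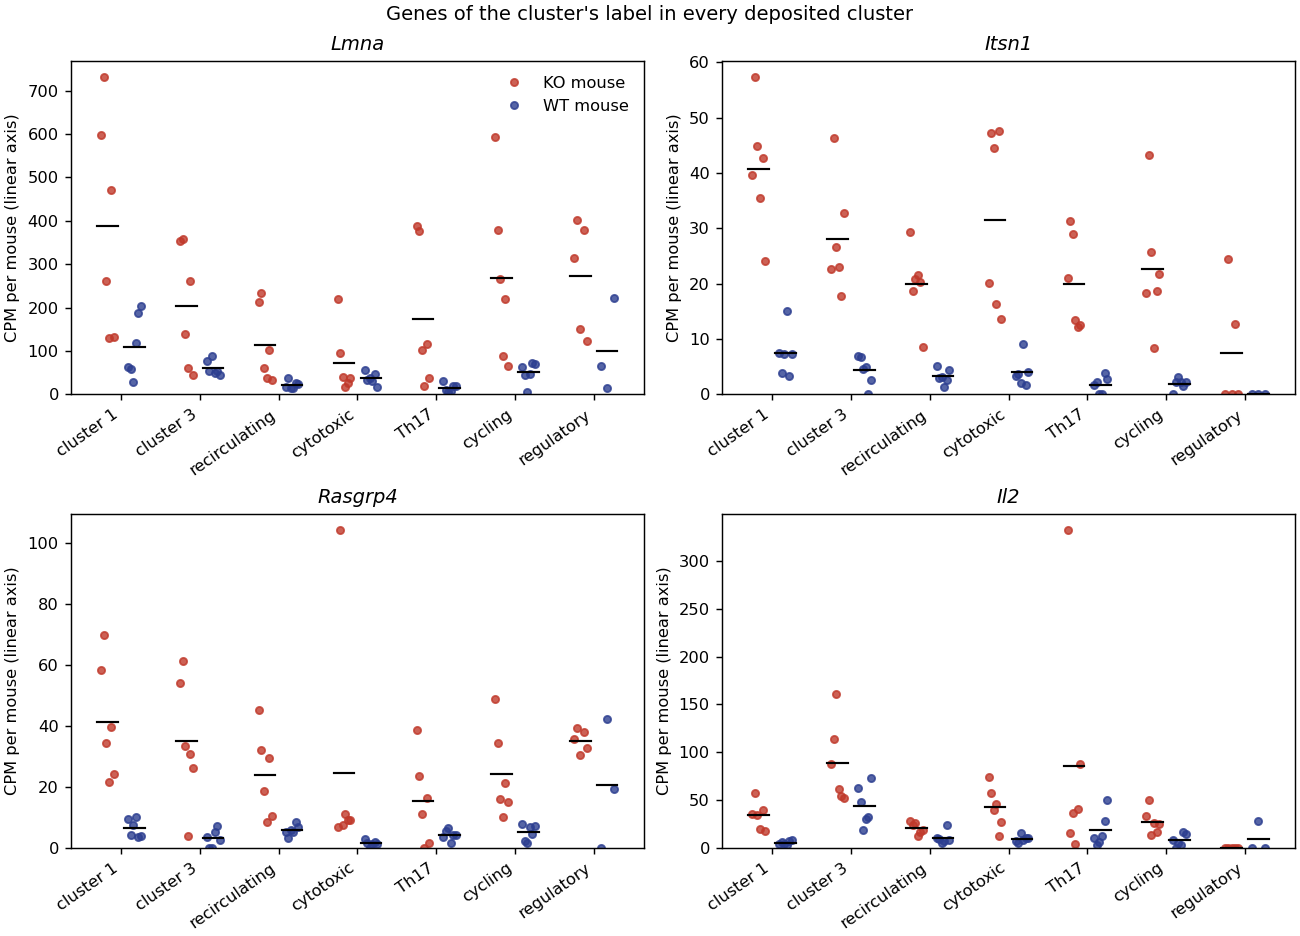
CPM of Lmna, Itsn1, Rasgrp4 and Il2 in each deposited cluster, 1 point per mouse with at least 20 cells of that cluster and a black line at the mean of the genotype. Itsn1 in cluster 1 runs from 24.1 to 57.4 CPM in KO and from 3.41 to 15.1 CPM in WT mice, and Il2 is higher in cluster 3 than in cluster 1.

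What set cluster 1 apart within each genotype was a group of genes that includes Ifng and Il12rb2. The comparison with the other clusters is a description, because the clusters were made from these genes. Of 2617 genes with at least 50 CPM in cluster 1 in both genotypes, 143 were highest and 42 lowest there in both. Only 2 of the 143 exceeded every other cluster by at least 1 on the log2 scale in both genotypes, so most differences were small.

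Il12rb2 (chromosome 6, 67291318 to 67376188, minus strand), the signalling chain of the interleukin 12 receptor, led the cluster. Its mean was 700.3 ± 95.9 CPM in KO and 463.9 ± 28.5 CPM in WT mice (SD, n = 6 each). The next highest cluster held 275.0 CPM in KO mice (cluster 3) and 180.2 CPM in WT mice (recirculating cells). Ifng, the gene of interferon gamma (chromosome 10, 118441046 to 118445892, plus strand), stood at 1659 ± 498 CPM in KO and 1703 ± 561 CPM in WT mice. The next highest were Th17 cells at 1081 ± 473 CPM in KO and cytotoxic cells at 836.3 ± 108 CPM in WT mice (SD, n = 6 each).

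Icam1, an adhesion molecule, reached 484.1 CPM in KO and 544.1 CPM in WT mice, against at most 262.3 CPM in other clusters of KO and 276.9 CPM in those of WT mice. The kinase gene Pim2 reached 168.7 and 199.9 CPM, with cytotoxic cells next at 79.9 and 94.1 CPM. Ifitm2, whose product restricts virus entry, stood at 1927 and 1535 CPM in cluster 1 of KO and WT mice, and its relative Ifitm3 at 618.2 and 499.3 CPM. Gbp2, a guanylate-binding protein gene, stood at 266.3 and 295.6 CPM. The interferon-stimulated list as a whole had its highest mean level in regulatory cells in both genotypes, and 3 of its 15 members were highest in cluster 1 in KO and 0 in WT mice. Other leaders were Plscr1, Riok1, Sytl3 and Rcbtb2.

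**Figure D2:**
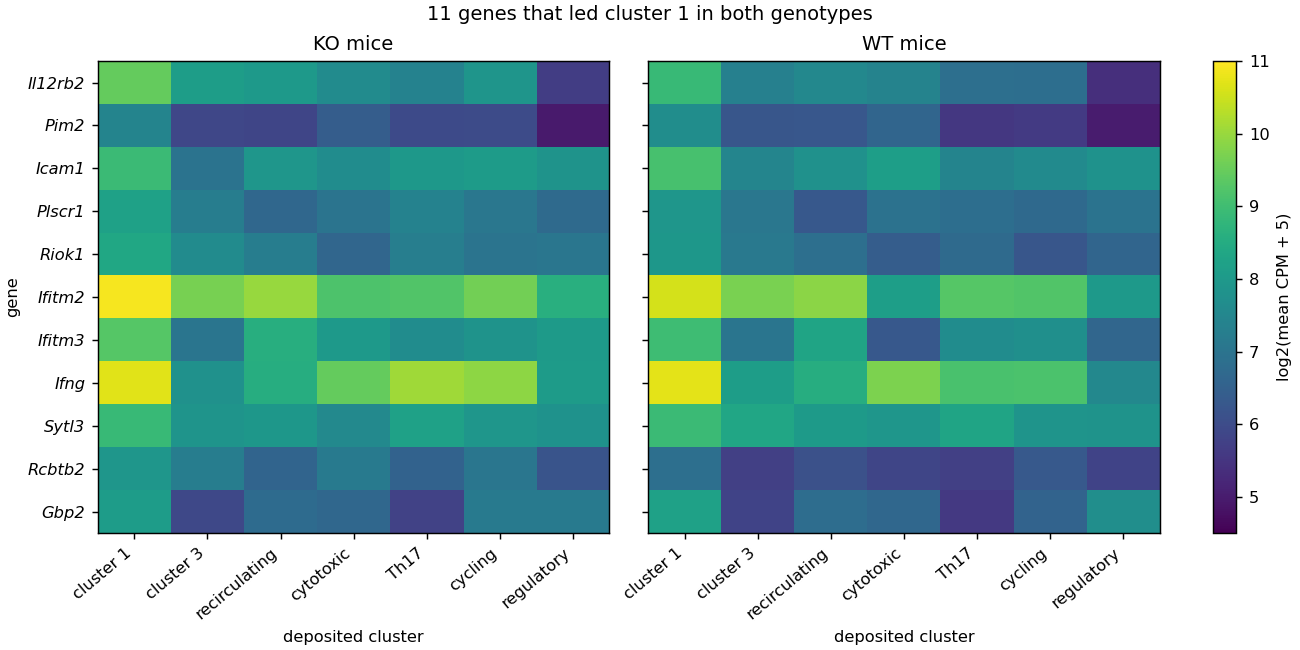
Mean level, as log2 of CPM plus 5, of 11 of the genes that stood highest above the nearest other cluster in both genotypes, in each of the 7 deposited clusters of KO and WT mice. Cluster 1, the first column, is the brightest in every row, with Il12rb2 at 700.3 CPM in KO and 463.9 CPM in WT mice.

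Among the genes that stood lowest were Itga4, Unc119, Park7, Anp32a and Slc1a5. Itga4, an integrin chain used for homing to the gut, stood at 76.6 CPM in KO and 98.3 CPM in WT mice, with cluster 3 next lowest in WT at 118.4 CPM. Slc1a5, a glutamine transporter gene, stood at 75.5 and 69.7 CPM.

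Of the 21 gene lists, the Th1 list and the NF-kB feedback list had their highest mean level in cluster 1 in both genotypes. In the Th1 list 6 of 11 members were highest there in both genotypes, among them Ifng, Il12rb2, Il18r1, Il18rap and Stat4. Relb, Nfkbiz and Icam1 of the NF-kB list were highest there in both genotypes. Of the cytokine list, Ifng, Tnf and Il21 were highest in cluster 1 in both genotypes, while the list as a whole was highest in Th17 cells. Il21 was low there, at 10.4 to 32.9 CPM in KO and 7.37 to 49.4 CPM in WT mice of cluster 1. The cell cycle list was near its lowest, ranking cluster 1 at 7 of 7 clusters in KO and 6 of 7 in WT mice. Across 2843 genes the profile of cluster 1 was closest to that of cluster 3 (Pearson r = 0.975 in KO, 0.971 in WT), then to recirculating cells (0.970 and 0.968). These correlations are across genes, which are not independent replicates.

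Between genotypes, cluster 1 cells of KO mice had more Atf3, Tiparp, F2rl2 and Il12rb2 and less Cd7, Trat1, Ccl5 and Batf. Of 5933 genes tested, 276 (4.65%) passed an adjusted p under 0.05 in edgeR's quasi-likelihood test, 104 higher (1.75%) and 172 lower (2.9%) in KO mice. Genotypes did not overlap in 150 genes (2.53%), with KO mice above in 94 (1.58%) and below in 56 (0.944%). The median log2 fold change of all genes tested was -0.01. With 92 cells drawn from every mouse, 44 genes were higher and 96 lower among 3446 tested. None of the calls shared with the main test had the opposite direction there.

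Among genes without overlap between genotypes whose mean level was 5 or more in log2 CPM, the largest fold changes above 0 beside those of Rasgrp4 and Itsn1 were in Atf3, Spryd7, Tiparp, F2rl2, Man1a, Rexo5, Ldlrad4 and Wdfy1. Atf3 encodes a stress-induced transcription factor. It stood at 187.1, 240.4, 87.4, 78.9, 127.0 and 76.1 CPM in KO mice 1 to 6; WT mice 1 to 6 stood at 22.3, 17.8, 32.8, 22.7, 41.0 and 73.7 CPM. KO mice 1 and 2 were high and KO mouse 6 lay just above WT mouse 6. The log2 fold change of Atf3 was 2.05 ± 0.35 (SE, edgeR quasi-likelihood test, adjusted p = 0.000666).

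Tiparp encodes a mono-ADP-ribosyltransferase known as a target of the aryl hydrocarbon receptor. KO mice ran from 89.6 to 357.6 CPM (median 180.3) and WT mice from 42.7 to 77.3 CPM (median 72.3). The genotypes did not overlap, and the log2 fold change was 1.62 ± 0.28 (SE, edgeR quasi-likelihood test, adjusted p = 0.000617). F2rl2 encodes protease-activated receptor 3, a thrombin receptor. It ran from 42.7 to 64.7 CPM in KO mice (median 58.9) and from 10.9 to 25.8 CPM in WT mice (median 17.4), with no overlap. Its log2 fold change was 1.54 ± 0.20 (SE, edgeR quasi-likelihood test, adjusted p = 5.99e-05). Man1a, an enzyme that trims N-glycans, rose by 1.43 ± 0.23, and Ldlrad4, a negative regulator of TGF-β signalling, by 1.11 ± 0.20 (log2 fold change ± SE). Spryd7 rose by 1.67 ± 0.30, the RNA exonuclease gene Rexo5 by 1.18 ± 0.19 and Wdfy1 by 1.05 ± 0.25. Wdfy1 lost its call when each mouse had to have at least 100 cells, which left out WT mice 3, 5 and 6 (adjusted p = 0.118).

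Among genes without overlap and with the same minimum level, the largest falls were in Cd7, Trat1, Ccl5, Gprin3, Lamc1, Batf, Fas, Fam117b, Lysmd2 and Satb1. Cd7, a surface protein of T and NK cells, stood at 17.2, 8.54, 16.4, 17.8, 14.7 and 24.1 CPM in KO mice 1 to 6; WT mice 1 to 6 stood at 53.9, 85.0, 131.2, 93.2, 47.8 and 25.8 CPM. WT mouse 6 was the lowest of its group and lay just above the KO mice. The log2 fold change was -2.25 ± 0.26 (SE, edgeR quasi-likelihood test, adjusted p = 6.7e-06). Trat1, an adaptor that stabilises the T cell receptor complex, ran from 103.7 to 155.9 CPM in KO and from 180.5 to 360.9 CPM in WT mice, a log2 fold change of -1.29 ± 0.13 (adjusted p = 1.35e-06).

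Ccl5, a chemokine that attracts T cells and monocytes, had a high level in both genotypes. It stood at 1138, 1152, 1223, 1157, 1320 and 1645 CPM in KO mice 1 to 6; WT mice 1 to 6 stood at 1737, 2955, 3357, 2437, 3926 and 2107 CPM. The genotypes did not overlap, though KO mouse 6 came near WT mouse 1, and the log2 fold change was -1.17 ± 0.13 (SE, edgeR quasi-likelihood test, adjusted p = 6.7e-06). Batf, an AP-1 factor needed for several helper T cell fates, ran from 165.4 to 314.9 CPM (median 230.9) in KO and from 355.0 to 546.8 CPM (median 452.6) in WT mice. Its log2 fold change was -0.94 ± 0.13 (SE, edgeR quasi-likelihood test, adjusted p = 9.12e-05). Fas, the death receptor gene, fell by 0.73 on the log2 scale, and Satb1, a chromatin organiser, by 0.67. Lysmd2 fell by 0.67 with an adjusted p of 0.031 in edgeR's test and lost its call in several alternatives, among them 1 cell per clone (adjusted p = 0.187).

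**Figure D3:**
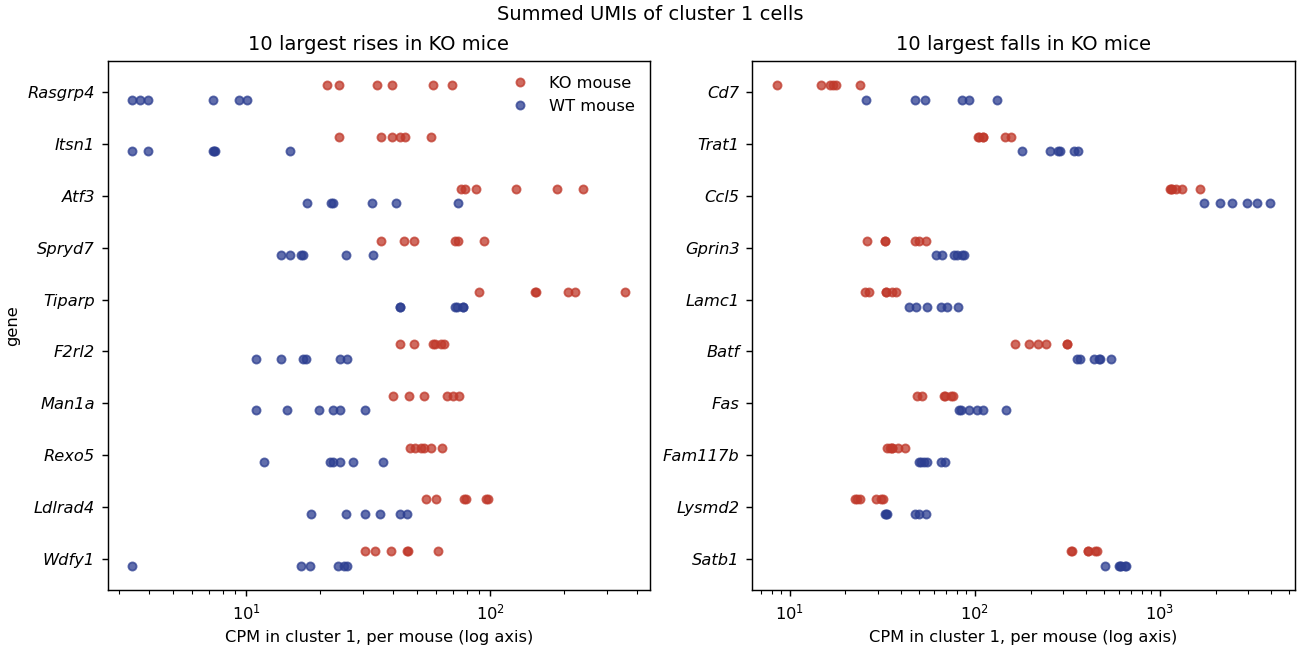
CPM in cluster 1 per mouse, on a log axis, of the 10 genes that rose most and the 10 that fell most in KO mice among those whose genotypes did not overlap and whose mean level was 5 or more in log2 CPM. Red KO points and blue WT points are separate in every row, though some nearly touch, as for Lysmd2 (32.1 against 32.7 CPM) and Atf3 (76.1 against 73.7 CPM).

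Of the 11 leading genes of cluster 1 reported here, 3 rose and 0 fell in KO mice. Over all genes tested, 1.75% were higher and 2.9% lower. Log2 fold changes of the 11 ran from -0.30 to 1.02. Il12rb2 stood at 738.5, 831.8, 741.0, 580.1, 714.6 and 595.8 CPM in KO mice 1 to 6; WT mice 1 to 6 stood at 460.9, 518.2, 448.3, 460.8, 460.9 and 434.6 CPM. Every KO mouse lay above every WT mouse, with a log2 fold change of 0.54 ± 0.09 (SE, edgeR quasi-likelihood test, adjusted p = 0.000408). Rcbtb2 rose by 1.02 ± 0.17 (adjusted p = 0.000456), again without overlap, at 177.7 to 304.5 CPM in KO and 64.9 to 168.7 CPM in WT mice. Ifitm2 rose by 0.27 ± 0.08 (adjusted p = 0.0361 in edgeR's test) with overlap. The Ifitm2 call was lost in 10 alternatives, among them 1 cell kept per clone (log2 fold change 0.11, adjusted p = 0.561). Ifng ran from 1162 to 2239 CPM in KO and from 894.9 to 2567 CPM in WT mice, and its log2 fold change was -0.10 ± 0.18 (adjusted p = 0.873). Its sign changed with 92 cells per mouse (0.32), with 1 cell per clone (0.07) and without WT mouse 5 (0.06).

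Among the lists, the one on the nuclear lamina and actin cytoskeleton had 7 of 23 tested members higher and 0 lower in KO mice, beside 1.75% higher and 2.9% lower over all genes tested. Its median log2 fold change was 0.05, beside -0.01 over all genes tested. Besides Lmna the risers were Capg, an actin-capping protein gene (log2 fold change 0.59), S100a11 (0.39), Lgals3 (0.45), Crip1 (0.45), Crip2 (1.18) and Lgals1 (0.24). Capg and S100a11 did not overlap between genotypes. Crip2 passed the filter with 5 KO mice and 1 WT mouse at the minimum and lost its call in 5 alternatives, Lgals3 in 3 and Crip1 in 2. The 7 include Crip2 and Lmna, a marker that came with the cluster. The list was also chosen with earlier results of these data known, so its count is a description. Lgals1 was close to the threshold (adjusted p = 0.0462) and lost its call in 11 of the alternatives. The list of Ras, Rac and Cdc42 exchange factors had 3 of 17 higher and 0 lower, with a median of 0.05. Over all genes tested the shares were again 1.75% and 2.9%. Rasgrp4 and Itsn1 are 2 of the 3 and passed the filter through the KO mice, so the count is no support for a change of the list. The other was Vav3, a Rac activator (log2 fold change 1.00, adjusted p = 0.0318 in edgeR's test). Vav3 lost its call in 11 alternatives, among them leaving out any WT mouse but mouse 6 (adjusted p = 0.0511 to 0.0839).

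The counts of this list and those after it are read beside 1.75% higher and 2.9% lower over all genes tested. In the list of T cell receptor signal response genes, 1 of 14 was higher and 2 were lower, with a median of -0.06. Nfatc1, a calcium-driven activation factor, rose by 0.49, while Dusp2, a phosphatase of MAP kinases, fell by 1.2 and Tnfrsf4, the costimulatory receptor OX40, by 0.40 on the log2 scale. Nfatc1 lost its call with cells thinned to 1500 UMIs (log2 fold change 0.29, adjusted p = 0.372). The AP-1 and stress list had 2 of 12 higher (Atf3, and Junb by 0.23) and 2 lower (Batf, and Jun by 0.56), with a median of 0.12. Junb lost its call in 12 alternatives and Jun in 3.

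Of 14 cytokine genes tested, 2 were higher and 3 lower, with a median of -0.02. Il2 was 1 of the 2 and had to differ. Tnfsf11, the gene of RANK ligand, rose by 0.76 ± 0.17. It stood at 628.0, 740.8, 578.9, 396.7, 490.7 and 349.9 CPM in KO mice 1 to 6; WT mice 1 to 6 stood at 314.0, 207.7, 298.9, 299.6, 252.6 and 471.4 CPM, and the groups overlapped through KO mice 4 and 6 and WT mouse 6. The tissue-repair factor gene Areg fell by 1.37, and the lymphotoxin genes Lta and Ltb by 1.2 and 0.45. Without WT mouse 1, the call for Lta was lost and its log2 fold change was -0.74 (adjusted p = 0.260). Ltb lost its call in 15 alternatives.

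The interleukin 2 receptor and JAK-STAT feedback list had 1 of 12 higher and 2 lower, with a median of -0.10. Il2ra, the high-affinity receptor chain, fell by 0.54 without overlap, at 224.6 to 337.7 CPM in KO and 341.4 to 455.8 CPM in WT mice. Its call was lost with cells thinned to 1500 UMIs (adjusted p = 0.0777 in edgeR's test). Socs2, a feedback inhibitor of cytokine signalling, rose by 0.56, and Bcl2, a survival factor, fell by 0.57; both lost their calls with 92 cells per mouse (adjusted p = 0.133 and 0.562). The NF-kB feedback list had 0 of 11 higher and 0 lower in edgeR's test.

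Over all genes tested, 2.9% were lower, and the counts of lower genes below are read beside that share. Of the 10 tested genes of stem-like and naive-memory T cells 0 were higher and 3 lower, with a median of -0.26: Satb1, Lef1 (-0.96) and Bcl2. The Th17 list had 0 of 7 higher and 3 lower, with a median of -0.41: Batf, Rora (-0.41) and Tmem176a (-0.80). Tmem176a lost its call in 12 alternatives, among them thinning to 1500 UMIs (adjusted p = 0.126 in edgeR's test) and at least 100 cells per mouse (adjusted p = 0.451). Rora did not overlap, at 737.2 to 817.7 CPM in KO and 905.8 to 1130 CPM in WT mice, while the defining Th17 genes Il17a, Il17f and Il23r were too low in cluster 1 to be tested. The cytotoxic list had 0 of 11 higher and 2 lower (Ccl5, and Gzmk by 1.08 on the log2 scale), and the inhibitory receptors 0 of 6 higher and 2 lower (Tigit by 0.67, Cd160 by 1.51). Gzmk lost its call with 92 cells per mouse (log2 fold change -0.49, adjusted p = 0.552 in edgeR's test) and without WT mouse 1, 2 or 3. Cd160 lost its call with 92 cells per mouse (adjusted p = 0.165), and Lef1 with cells thinned to 1500 UMIs (adjusted p = 0.0658). The glycolysis and hypoxia list had 0 of 17 higher and 3 lower, with a median of -0.18: Tpi1 (-0.78), Hif1a (-0.47) and Pgam1 (-0.52). Pgam1 lost its call in 4 alternatives, among them thinning to 1500 UMIs (adjusted p = 0.233 in edgeR's test). Tpi1 lost its call with 92 cells per mouse (adjusted p = 0.0933).

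The homing list had 1 of 15 higher and 1 lower. Ccr2, a receptor for inflammatory chemokines, stood at 311.5 to 369.7 CPM in KO and 167.7 to 277.0 CPM in WT mice (log2 fold change 0.58, adjusted p = 0.000972 in edgeR's test). Cxcr4 fell by 1.63. It passed the filter with 5 WT mice and 1 KO mouse at the minimum, so its fall and its place in the count are a description. In the list of the receptor complex, 1 of 12 was higher and 1 lower: the coreceptor gene Cd4 rose by 0.56 ± 0.08, at 627.7 to 715.6 CPM against 368.7 to 518.7 CPM, and Trat1 fell. Il12rb2 was the 1 of 10 Th1 genes that rose, and Bcl6 the 1 of 6 follicular helper genes. The regulatory list had Il2ra as its 1 faller of 4 tested, and the heat shock list Hspa8 (-0.27) as its 1 faller of 10. Hspa8 lost its call with at least 100 cells per mouse (adjusted p = 0.151 in edgeR's test). The Th2 list (4 tested), interferon-stimulated list (6 tested) and cell cycle list (9 tested) had 0 genes past the threshold.

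The same mice contribute cells to every cluster, so comparisons between clusters share animals, and the values are given side by side. The same fit called 165 genes higher and 251 lower of 7596 tested in recirculating cells, 87 and 104 of 6601 in cytotoxic cells, 131 and 226 of 4242 in cluster 3, 140 and 143 of 5558 in Th17 cells and 131 and 157 of 5376 in cycling cells. Itsn1 rose by 2.41 in cluster 1, with a log2 fold change of 2.37 in recirculating and 2.88 in cytotoxic cells. Atf3 had 2.05 in cluster 1 and 0.47 to 1.51 in recirculating, cytotoxic, cycling and cluster 3 cells, and it was -0.00044 in regulatory cells of the mice with at least 20 of them. Lmna had 1.87 in cluster 1, and its values in the 6 other clusters ran from 0.33 in cytotoxic to 3.16 in Th17 cells. Ccl5 had -1.17 in cluster 1, and its values in the 6 others ran from -0.01 in recirculating to -1.38 in cycling cells. When the difference between the effect in cluster 1 and that in the other clusters was tested itself (limma), 0 of 5933 genes passed, and 436 had an unadjusted p under 0.05. No genotype effect was therefore shown to be particular to cluster 1.

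**Figure D4:**
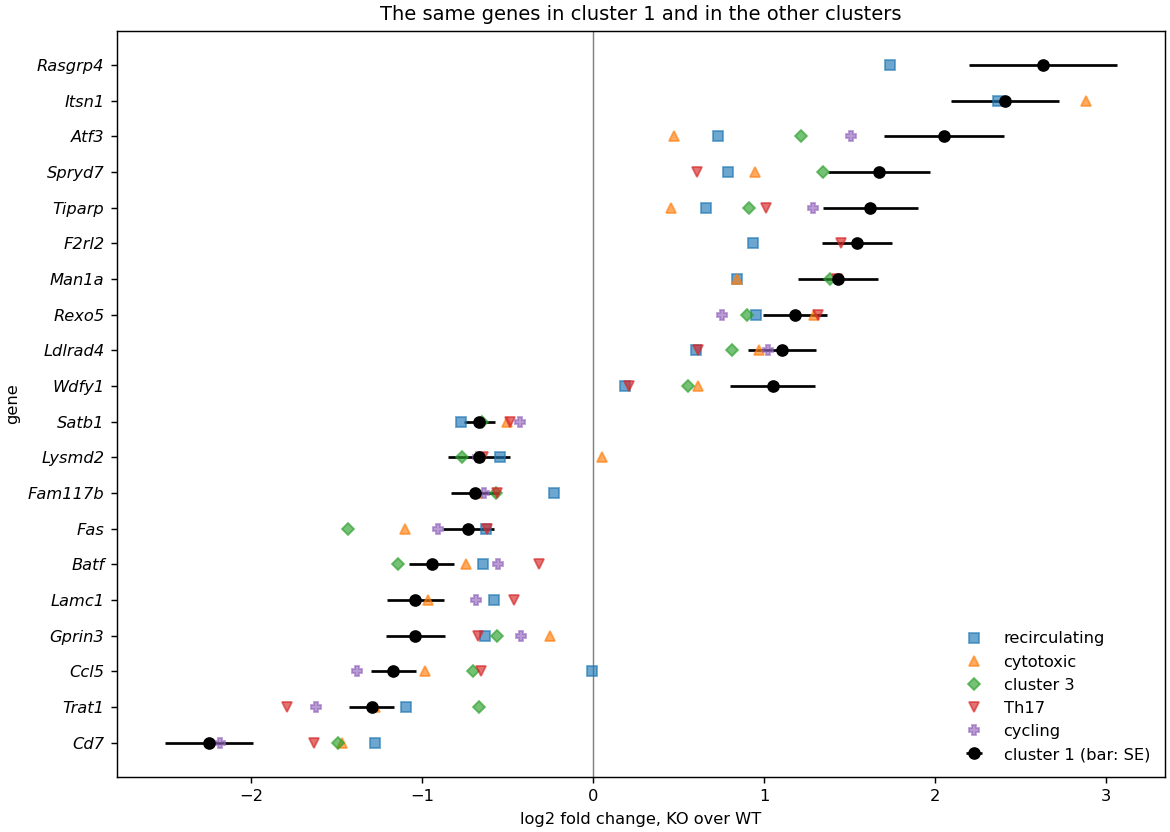
Log2 fold change of KO over WT mice for the 10 largest rises and 10 largest falls of cluster 1 without overlap whose mean level was 5 or more in log2 CPM (black, bars are SE), with the same genes in 5 other clusters where they were tested. Regulatory cells are not drawn. Atf3 is at 2.05 in cluster 1 and between 0.47 and 1.51 in the 4 drawn clusters where it was tested, and Ccl5 is at -1.17 in cluster 1 and -0.01 in recirculating cells.

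Promoters of the genes called were read for short motifs, from 250 bases before to 50 after the start (RefSeq, GRCm38.p6), on both strands. The table held a promoter for 76 of 104 genes higher, 132 of 172 lower and 4680 of 5933 tested. Shares of these sets are of genes, and a gene counts if any of its promoters matches. The share of all promoters counts each of 32851 promoters by itself, so it is a different measure. In all, 10 motifs were searched in an exploratory step, and the shares of all 10 are given as a description without a test. The AP-1 motif was chosen for the windows printed below after the shares had been seen. The AP-1 motif TGANTCA was found for 13.2% of genes higher in KO mice, 7.58% of those lower and 5.77% of those tested. It was in 7.81% of all promoters in the table. Its stricter form TGACTCA, whose matches are all matches of TGANTCA too, was in 9.21%, 3.79%, 4.19% and 5.20%. Genes higher in KO mice with a match numbered 10 for TGANTCA and 7 for TGACTCA.

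The BCL6 motif TTCCTNGAA was found for 1.32% of genes higher, 0.758% of those lower and 1.32% of those tested, and in 1.59% of all promoters. Its shorter form TCCTNGAA was in 1.32%, 3.03%, 4.94% and 5.27%, and TTCTAGAA in 2.63%, 1.52%, 1.05% and 1.10%. The STAT motif TTCNNNGAA, which overlaps TTCCTNGAA, was in 6.58%, 8.33%, 8.38% and 8.30%. The aryl hydrocarbon receptor motif GCGTG was in 55.3%, 59.1%, 59.1% and 32.4%, and TTGCGTG, which contains it, in 1.32%, 2.27%, 2.18% and 1.16%. The CREB and ATF motif TGACGTCA was in 2.63%, 5.3%, 4.27% and 1.79%, and the composite motif of NFAT with AP-1 in 0%, 0.758%, 1.43% and 1.45%.

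Among the 10 largest rises and Lmna, Vav3 and Il2, the AP-1 motif was in F2rl2, Lmna and Vav3. These windows hold the matches in named genes of the AP-1 motif, which was chosen after the shares had been seen. They are shown with TGANTCA in capitals and 5′ to 3′ on the strand of the gene. The F2rl2 matches start 233 and 54 bases before the start annotated in RefSeq. Their windows, flanking bases included, are chr13:95696676-95696704 and chr13:95696855-95696883 on the plus strand. The second window lies inside the span that the gene positions give for F2rl2, 95696853 to 95702739. The Lmna match starts at base 40 after an annotated start, at chr3:88503303-88503324 on the minus strand. The Vav3 match starts 114 bases before an annotated start, at chr3:109573882-109573910 on the plus strand. The promoters read numbered 2 for Lmna and 3 for Vav3. Both matches lie inside the span of the gene, 88480147 to 88509956 for Lmna and 109340653 to 109685698 for Vav3. They belong to starts within these genes, not to the outermost start. Rasgrp4, Ldlrad4 and Wdfy1 were not in the promoter table.
F2rl2, upstream: ggcagtggaatTGATTCAaagctaattgc
F2rl2, proximal: gaggctcagccTGAGTCAtgcacacagac
Lmna: ctggctgtcagTGACTCAgtgt
Vav3: atttaggggtaTGAGTCAcctttctgaca

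A clone is the set of cells of 1 mouse that share a T cell receptor clonotype, a label of the receptor sequence. The UMI counts include receptor segment genes, and their part in the clustering was not tested. Cluster 1 held 3353 of 16175 cells with a clonotype. Cells in clones of 2 or more made up 65.6%, 65.5%, 72.4%, 78.4%, 66.3% and 68.9% of cluster 1 in KO mice 1 to 6 and 80.8%, 75.2%, 77.4%, 78.7%, 71.3% and 61.3% in WT mice 1 to 6. The genotypes overlapped, at 69.5% ± 5.08 and 74.1% ± 7.08 (SD), with a difference of -4.58 percentage points (exact permutation p = 0.214, adjusted p = 0.268 over 5 clone tests).

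Cluster 1 had slightly fewer cells in expanded clones than the other cells of the same mouse. The difference was -3.56 percentage points ± 3.93 (SD, n = 12 mice) and below 0 in 11 of 12 mice. It did not pass after adjustment (exact sign-flip permutation p = 0.0103, adjusted p = 0.0513 over 5 tests). Within WT mice it was -5.12 points, below 0 in 6 of 6 (exact permutation p = 0.0312, the smallest 6 mice can give, adjusted p = 0.0781). Within KO mice it was -1.997 points (exact permutation p = 0.281), and the difference between genotypes was 3.12 points (exact permutation p = 0.169, adjusted p = 0.268). KO mouse 3 was the 1 mouse above 0, at 3.101 points. Leaving out that mouse, the only one of the opposite sign, gave -4.17 points (adjusted exact permutation p = 0.00488), while leaving out any of the other 11 gave an adjusted exact permutation p of 0.0537 to 0.102. With an equal number of clonotyped cells per mouse the adjusted exact permutation p was 0.0708, and with clones of 3 or more cells 0.0244.

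**Figure D5:**
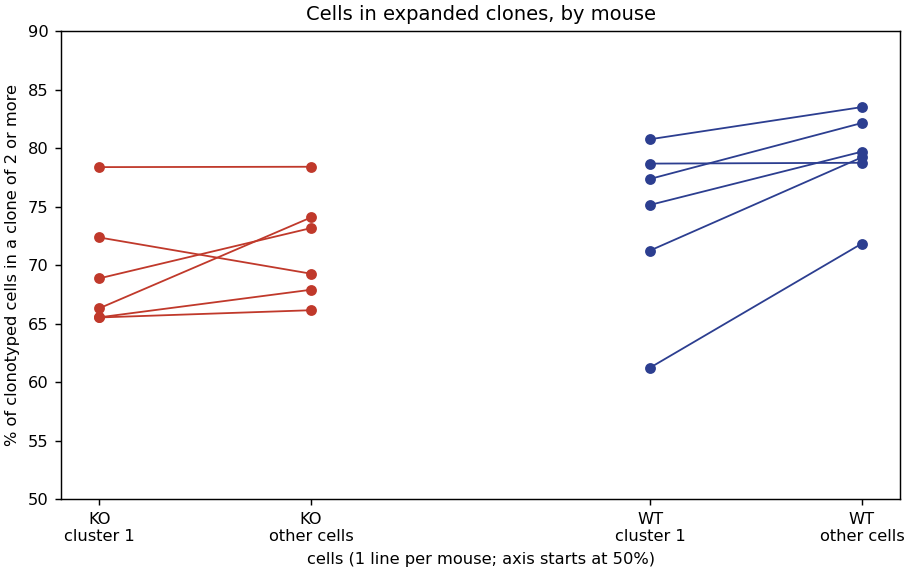
Percent of clonotyped cells in clones of 2 or more cells, in cluster 1 and in the other cells, 1 line per mouse, on an axis that starts at 50%. Lines rise to the right in 11 of 12 mice, steepest in WT mouse 6 (61.3% in cluster 1, 71.9% in other cells), and KO mouse 3 falls.

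Most cluster 1 cells of expanded clones had sister cells in other clusters. A clone of 2 or more cells with 1 cell in cluster 1 has a sister elsewhere by construction. Of the expanded cluster 1 cells of a mouse, 84.3% ± 9.30 in KO and 97.2% ± 3.17 in WT mice (SD, n = 6 each) belonged to a clone also found in another cluster. Cluster sizes differ between genotypes and bear on this share, so it is a description. Recirculating cells were reached by 53.4% ± 21.8 in KO and 71.4% ± 9.74 in WT mice (SD, n = 6 each). Cluster 3 was reached by 50.2% ± 11.5 and 42.8% ± 11.2, cytotoxic cells by 37.6% and 61.1%, Th17 cells by 21.9% and 47.6% and cycling cells by 33.2% and 42.6%. Regulatory cells were reached least, at 0.649% and 2.17%. Of 6367 clonotypes, 20 were found in more than 1 mouse.

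The largest clone of cluster 1 in KO mouse 5 had 46 of 475 clonotyped cluster 1 cells (9.68%), and 15 of its other cells were cytotoxic, 4 recirculating and 1 each in cluster 3 and cycling cells. In WT mouse 1 the largest had 26 of 156 (16.7%), of 235 cells in that mouse, with 89 in cytotoxic and 56 in recirculating cells. In KO mouse 6 the largest had 11 of 241 cells in cluster 1 (4.56%) but 140 in the mouse, 56 of them recirculating and 43 Th17 cells. The junctions of the first and the second clone are shown as examples of a clone mostly inside cluster 1 and a clone mostly outside it, as the annotation gives them, 5′ to 3′ and in lower case throughout.
KO mouse 5, alpha: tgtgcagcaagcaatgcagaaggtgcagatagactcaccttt
KO mouse 5, beta: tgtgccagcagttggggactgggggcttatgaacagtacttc
WT mouse 1, alpha: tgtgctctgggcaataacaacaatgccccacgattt
WT mouse 1, beta: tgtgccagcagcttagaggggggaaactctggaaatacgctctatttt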

How the data were processed

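The submitters' processing notes name Cell Ranger 3.1.0, Seurat 3.1.5 and the builds GRCm38 and mm10. How cells were filtered is not stated in the labels. The authors deposited UMI counts for 11971 genes in 18860 cells, with an annotation of mouse, genotype, cluster and clonotype. In it the authors also deposited a mitochondrial percent and a doublet score per cell (highest 0.354). No doublet caller was run here. Every cell had at least 501 genes.

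UMIs of cluster 1 were summed per mouse. The test was the quasi-likelihood F test of edgeR 4.0.16 under R 4.3.3 (TMM, filterByExpr, two-sided, Benjamini-Hochberg adjusted p under 0.05 over all genes tested). The same fit was run in other clusters, in mice with at least 20 cells. Effects were compared between clusters with limma 3.58.1 on log2 CPM with a pseudocount of 5, with regulatory cells left out. Clone shares and cell measures were compared with exact permutation tests over mice. The test of the clone difference between genotypes was added to the 4 planned, and p-values were adjusted over all 5. The edgeR test was checked on simulated counts, and the outcome is not given here.

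The cluster, gene lists and rule for named genes were chosen with earlier results of these data known. The rule took the 4 markers and Bcl6, the 10 largest rises and 10 largest falls without overlap and at a mean log2 CPM from 5 up, the 12 highest and 6 lowest genes of the cluster, the members of each list that passed, and up to 4 with the smallest p. Receptor segments and unnamed gene models were passed over, and some genes that the rule took are not reported here. Ranges of CPM are the lowest and highest mouse. Alternatives were DESeq2 1.42.0 and its size factors, no filter, 92 cells per mouse, cells thinned to 1500 UMIs, at least 100 cells per mouse, no receptor segments, 1 cell per clone, other clone sizes and each mouse left out.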

Additional observations from a re-analysis of the deposited data

Results flagged for a closer look

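Each of 234 groups of 6 mice was examined for a highest or lowest mouse whose gap to the next, over the whole range, exceeded Dixon's critical value. The 15 values below did so, and chance gives about 1 in 20 groups. In WT mice the high values were Itsn1 at 15.1 CPM in mouse 4 (the others 3.41 to 7.43 CPM), Il2ra at 455.8 CPM in mouse 4 (341.4 to 379.3), Dusp2 at 385.8 CPM in mouse 5 (176.0 to 233.3) and Gata3 at 58.0 CPM in mouse 5 (27.7 to 36.8). Il12rb2 stood at 518.2 CPM in WT mouse 2 (434.6 to 460.9), Ikzf2 at 77.3 CPM in WT mouse 6 (10.1 to 34.1) and Anp32a at 196.8 CPM in WT mouse 3 (124.6 to 151.1).

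Low values in WT mice were Satb1 at 501.8 CPM in mouse 5 (597.8 to 652.6), Ctla4 at 863.7 CPM in mouse 5 (929.5 to 966.9), Nkg7 at 1005 CPM in mouse 6 (1418 to 1591), and in mouse 3 Trbc1 at 58.3 CPM (81.0 to 89.2), Riok1 at 149.4 CPM (239.0 to 284.8) and Park7 at 105.7 CPM (150.2 to 169.4). In KO mice Ccl5 was high in mouse 6 at 1645 CPM (1138 to 1320) and Lgals3 in mouse 2 at 1061 CPM (874.7 to 928.2).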

How the results depend on the processing

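No paired analysis was possible because the replicates are mice in 1 pooled library and their numbers do not pair KO with WT mice. Against 104 genes higher and 172 lower in KO mice, no filter on low counts gave 161 higher and 131 lower, so that higher genes outnumbered lower ones there. Fewer calls came with 92 cells per mouse (44 and 96), thinning to 1500 UMIs (66 and 100), at least 100 cells per mouse (46 and 104) and leaving out KO mice 1 and 2, a setting added after seeing the data (59 and 116). The minimum of 100 cells left out WT mice 3, 5 and 6. Leaving out each mouse in turn gave 70 to 150 higher and 128 to 208 lower. In every alternative 0 of the shared calls had the opposite direction. The difference of effects between clusters stayed at 0 calls with each mouse left out. The mean over cells in place of the median gave -216.2 UMIs (adjusted exact permutation p = 0.0292). For the clone difference, clones of 3 or more gave -4.41 points, and leaving out 1 mouse gave -4.17 to -2.92 points. Within KO mice that range was -3.02 to -0.84, within WT mice -6.13 to -4.02, and for KO against WT in cluster 1 -7.14 to -3.24 points. The cause of these shifts was not tested.

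Of 109 genes followed, 58 were called, and 29 of these kept their call in every alternative in which they had a value. Il2 and other low genes had no value in settings that filtered them out. Among 2222 values, 145 lost a call, 38 gained one and 30 had the opposite sign, all in 8 genes of which 0 were called. Ccr8 (log2 fold change -0.014) gave 0.036 with no filter, 0.012 thinned, 0.16 with at least 100 cells, 0.0047 with 1 cell per clone and -0.12 to 0.077 with a mouse left out. Ikzf2 (-0.21) gave 0.40 with at least 100 cells, 0.034 with 1 cell per clone and -0.40 to 0.25 with a mouse left out. Ifng (-0.10) gave 0.32 with equal cells, 0.068 with 1 cell per clone and -0.21 to 0.061 with a mouse left out. Sytl3 (-0.094) gave 0.013 with equal cells and 0.031 with 1 cell per clone, Tnfrsf18 (-0.10) 0.049 with equal cells, and Pdcd1 (-0.19) 0.071 without KO mice 1 and 2. Park7 (0.053) gave -0.025 with at least 100 cells and -0.015 to 0.092 with a mouse left out. Slc1a5 (0.023) gave -0.15 thinned, -0.12 with at least 100 cells, -0.13 with 1 cell per clone, -0.033 without KO mice 1 and 2 and -0.017 to 0.094 with a mouse left out.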
